A study of Mus musculus with 24 samples.

Results

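The promoters of vomeronasal receptor genes were followed through a promoter capture Hi-C study of mouse cranial neural crest, as 119 of the 22203 bait fragments that the lists hold. Promoter capture Hi-C cross-links and ligates chromatin that lies close together in the nucleus, and probes then pull out the junctions that carry a promoter fragment, the bait. A bait entered the set where it held, or lay within 1 kb of, an annotated end of a gene whose symbol starts with Vmn1r or Vmn2r in the mm10 build. Of the 119 baits, 82 belonged to the V1R family and 37 to the V2R family; 117 held the gene end and 2 lay within 1 kb of it. The rule used gene names and positions and no measured value.

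The 24 libraries fell into 12 groups of 2, which the labels call biological replicates, and p-values measure the spread between such libraries. Wild-type (WT) libraries came from E8.5 neural crest progenitors and, at E11.5, from FNP, Mx, Md and PA2, common abbreviations for the frontonasal process, the maxillary process, the mandibular process and the second pharyngeal arch. The same 4 tissues at E11.5 came from Ezh2cKO embryos, a conditional knockout of Ezh2, whose product is the histone H3 lysine methyltransferase of Polycomb repression. At E11.5, Hoxa2PTE-36kb-del embryos gave Md and PA2, and Hoxa2PTE-42kb-del embryos gave PA2. The labels call all cells cranial neural crest, but the protocols name sorting only for Wnt1::Cre;ROSARFP and Ezh2cKO embryos. Any sorting of deletion embryo cells, the driver of the knockout, the genetic background of each line and the place of the deletions were not given in the sources used here. Contacts do not measure expression, so neither cell type markers nor the level of Ezh2 can check these labels.

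Vomeronasal receptors are membrane proteins with which sensory neurons of the vomeronasal organ detect pheromones and other social odours. V1R genes have a single coding exon, and their products couple to the G protein subunit encoded by Gnai2, while V2R products carry a large extracellular domain and couple to the product of Gnao1. Both families lie in long tandem gene clusters, and a mature vomeronasal neuron expresses few of their genes, while neural crest is not known as a site of their function.

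The 119 baits stood at 123 of the 645 annotated Vmn genes, 110 of the 355 protein-coding ones and 13 of the 290 pseudogenes. Most receptor genes therefore had no bait: 77 of 231 protein-coding Vmn1r genes and 33 of 124 protein-coding Vmn2r genes were represented. Pseudogenes alone marked 6 baits, several Vmn genes shared 7, and 3 also held a gene of another kind. Those 3 carried the pseudogene Vmn1r-ps139 with Fpr-rs7, which belongs to the formyl peptide receptor family, Vmn1r-ps144 with Ppp2r1a, a scaffold subunit of protein phosphatase 2A, and Vmn1r4 with the nucleotidase gene Nt5c3. Calls at these baits cannot be assigned to 1 of the genes.

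Joined where neighbouring receptor baits lay at most 1 Mb apart, the baits formed 21 clusters on 8 chromosomes, of which 9 had at least 3 baits and held 101 of the 119. The largest by bait number lay at chr7:10175553-13192258 (mm10), with 21 V1R and 3 V2R baits among 45 baits of any gene. It was followed by chr17:19503350-21317179 with 14 V1R and 9 V2R baits, chr13:22178924-23138178 with 19 V1R baits and chr6:56920488-58310207 with 13 V1R baits. The other 5 were chr6:89709439-90270739 (6 V1R baits), chr3:64050904-64909756 (5 V2R), chr7:85869661-86996498 (5 V2R), chr7:23885252-23985307 (3 V1R) and chr7:41445580-42260935 (3 V2R). Zinc finger genes lie between the receptors of the large chromosome 7 cluster, so windows and contacts there mix both kinds.

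The promoters below are those of the 4 receptors that passed the test in at least 2 of the comparisons described later, a choice that rests on those results. They are shown so that the fragments behind the repeated changes can be seen. The comparisons in which each of them passed share E11.5 WT libraries. Sequences are RefSeq's (GRCm38.p6), 300 bases each, 5′ to 3′ on the gene's strand, with the ATG at the annotated start in capitals. Vmn1r224 lies at chr17:20418913-20419212 on the plus strand, Vmn1r74 at chr7:11846525-11846824 on the plus strand, Vmn1r76 at chr7:11931236-11931535 on the minus strand and Vmn2r17 at chr5:109419763-109420062 on the plus strand.
Vmn1r224: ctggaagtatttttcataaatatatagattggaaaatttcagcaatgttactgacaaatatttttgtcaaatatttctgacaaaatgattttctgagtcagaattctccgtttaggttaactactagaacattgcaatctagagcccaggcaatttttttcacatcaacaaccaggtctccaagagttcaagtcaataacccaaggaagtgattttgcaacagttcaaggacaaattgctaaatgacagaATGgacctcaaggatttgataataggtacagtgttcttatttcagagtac
Vmn1r74: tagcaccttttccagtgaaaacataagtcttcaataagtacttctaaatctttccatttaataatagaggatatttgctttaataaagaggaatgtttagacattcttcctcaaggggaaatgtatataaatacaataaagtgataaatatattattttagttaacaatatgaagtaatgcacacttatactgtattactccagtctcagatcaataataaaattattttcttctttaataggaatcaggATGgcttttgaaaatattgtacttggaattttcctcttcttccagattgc
Vmn1r76: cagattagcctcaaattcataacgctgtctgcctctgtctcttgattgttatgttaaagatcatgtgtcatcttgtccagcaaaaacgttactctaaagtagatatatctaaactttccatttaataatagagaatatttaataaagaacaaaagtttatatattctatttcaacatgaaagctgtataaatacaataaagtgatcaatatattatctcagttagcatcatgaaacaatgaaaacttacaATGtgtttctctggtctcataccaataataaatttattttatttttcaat
Vmn2r17: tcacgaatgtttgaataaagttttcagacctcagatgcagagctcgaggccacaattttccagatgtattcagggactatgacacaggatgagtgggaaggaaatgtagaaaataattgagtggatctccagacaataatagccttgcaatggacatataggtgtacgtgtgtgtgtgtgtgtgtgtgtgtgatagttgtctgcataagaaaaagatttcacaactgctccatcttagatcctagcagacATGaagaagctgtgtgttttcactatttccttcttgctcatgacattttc
Each of the 4 annotated starts lay inside a receptor bait, and each gene model began at its ATG, so these windows may not hold the true transcription start. GC content was 33.7% for Vmn1r224, 27.7% for Vmn1r74, 27.0% for Vmn1r76 and 40.3% for Vmn2r17, with 1, 0, 2 and 3 CG dinucleotides.

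These features were common to the family. RefSeq promoter windows were at hand for 96 of the 122 named genes at receptor baits, and for 206 Vmn1r and 118 Vmn2r genes in all. Median GC content was 36% for Vmn1r and 38.2% for Vmn2r windows, against 56.3% over 21262 protein-coding windows and 35.0% for olfactory receptor (Olfr) windows. The median number of CG dinucleotides was 1 in both receptor families and 13 over all windows. The annotated start was an ATG in 87.9% of Vmn1r and 86.4% of Vmn2r windows and in 8.13% of all. On either strand, TATAAA occurred in 42.2% of Vmn1r, 22.9% of Vmn2r, 41.0% of Olfr and 12.6% of all windows. Among the printed ones it occurred in those of Vmn1r74 and Vmn1r76. TAATTA, the core bound by many homeodomain proteins, occurred in 7.28%, 16.9%, 18.6% and 4.53%, in the same order.

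Each library listed 142284 to 190343 called interactions with a score of at least 5, of which 136997 to 183781 joined fragments of 1 chromosome (cis) and 4763 to 7927 joined different chromosomes (trans); read depth was unknown. Over the 24 libraries the median receptor bait had a mean of 3.79 cis calls, against 3.67 for all baits, 3.42 for 873 Olfr baits and 5.29 for 309 zinc finger (Zfp) baits. V1R baits had a median of 4.08 and V2R baits of 2.96. Each of the 119 baits had a cis call in some library, 56 had one in all 24 libraries, and 5 averaged under 1 call. A mean of at least 5 cis calls, the minimum for testing single baits, was reached by 43 receptor baits (36.1%), of which 36 were V1R and 7 V2R, and by 41.3% of all baits. Pairs of baits are listed once, so counts by the listed bait leave out contacts filed under the partner.

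The 10 baits with the highest means lay in 5 of the clusters. Vmn1r67 led with a mean of 34.7 cis calls per library, followed by Vmn1r71 with 31.0, the bait of Vmn1r-ps144 and Ppp2r1a with 28.4, and Vmn1r70 with 16.3. Vmn1r180 (12.8), Vmn1r76 (11.7), Vmn1r181, Vmn2r111 (10.3), Vmn1r51 (10.1) and Vmn2r105 (9.96) completed the group. Vmn1r67, Vmn1r70 and Vmn1r71 are neighbours in the chromosome 7 cluster. Vmn1r67, the most connected receptor bait, was also among the most variable: it had 11 to 84 calls across the 8 Ezh2cKO libraries, against 21 to 53 in the 8 E11.5 WT libraries, and passed no test.

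Cis calls of all 119 baits took a small and similar share of most libraries. They made up 0.394% and 0.396% of library cis calls in the 2 E8.5 libraries, and 0.352% to 0.430% with a median of 0.396% in the 8 E11.5 WT libraries. In Ezh2cKO the share ran from 0.307% to 0.451%, with a median of 0.361%, and overlapped WT. With the 36kb deletion it was 0.465% and 0.417% in Md and 0.356% and 0.412% in PA2. Both 42kb deletion libraries lay below the other 22, at 0.255% and 0.305%, against 0.417% and 0.391% in PA2 of WT. Olfr baits were also below the WT range with 42kb, at 2.49% and 2.55% of library cis calls. They had 2.75% to 3.09% in E11.5 WT and 2.40% to 3.07% in Ezh2cKO. In bulk libraries, fewer cells that make a contact and less contact per cell cannot be told apart.

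The share of these contacts that stayed inside a receptor cluster separated Ezh2cKO from WT. Calls with both ends in the same receptor cluster were 46.4% and 51.6% of receptor cis calls at E8.5 and 38.0% to 40.9% in E11.5 WT libraries (median 40.5%). In Ezh2cKO they were 30.0% to 36.01% (median 32.9%), and every Ezh2cKO library lay below every WT library. With the 36kb deletion the share was 46.4% and 44.0% in Md and 50.3% and 39.4% in PA2, and with the 42kb deletion 45.2% and 42.2%, so that 5 of the 6 deletion libraries lay above the WT range.

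The families differed in this share. For V1R baits alone it was 41.0% to 43.3% in E11.5 WT and 34.2% to 38.8% in Ezh2cKO libraries, again without overlap. V2R baits, whose clusters hold fewer baits, had 11.3% to 19.6% in WT, 7.43% to 16.0% in Ezh2cKO, 22.4% to 30.8% with the 36kb deletion and 25.3% in both 42kb libraries, and the deletion libraries did not overlap WT. Olfr baits, which also lie in large clusters, gave 53.9% to 58.8% in WT, 50.6% to 58.3% in Ezh2cKO, 63.1% to 69.4% with the 36kb and 64.8% and 65.0% with the 42kb deletion. The share among Olfr baits was thus above the WT range in all 6 deletion libraries but overlapped WT in Ezh2cKO. For Zfp baits WT and Ezh2cKO overlapped too, at 19.6% to 21.1% and 19.7% to 22.1%, and the deletion libraries, at 21.5% to 25.6%, again lay above the WT range.

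**Figure D1:**
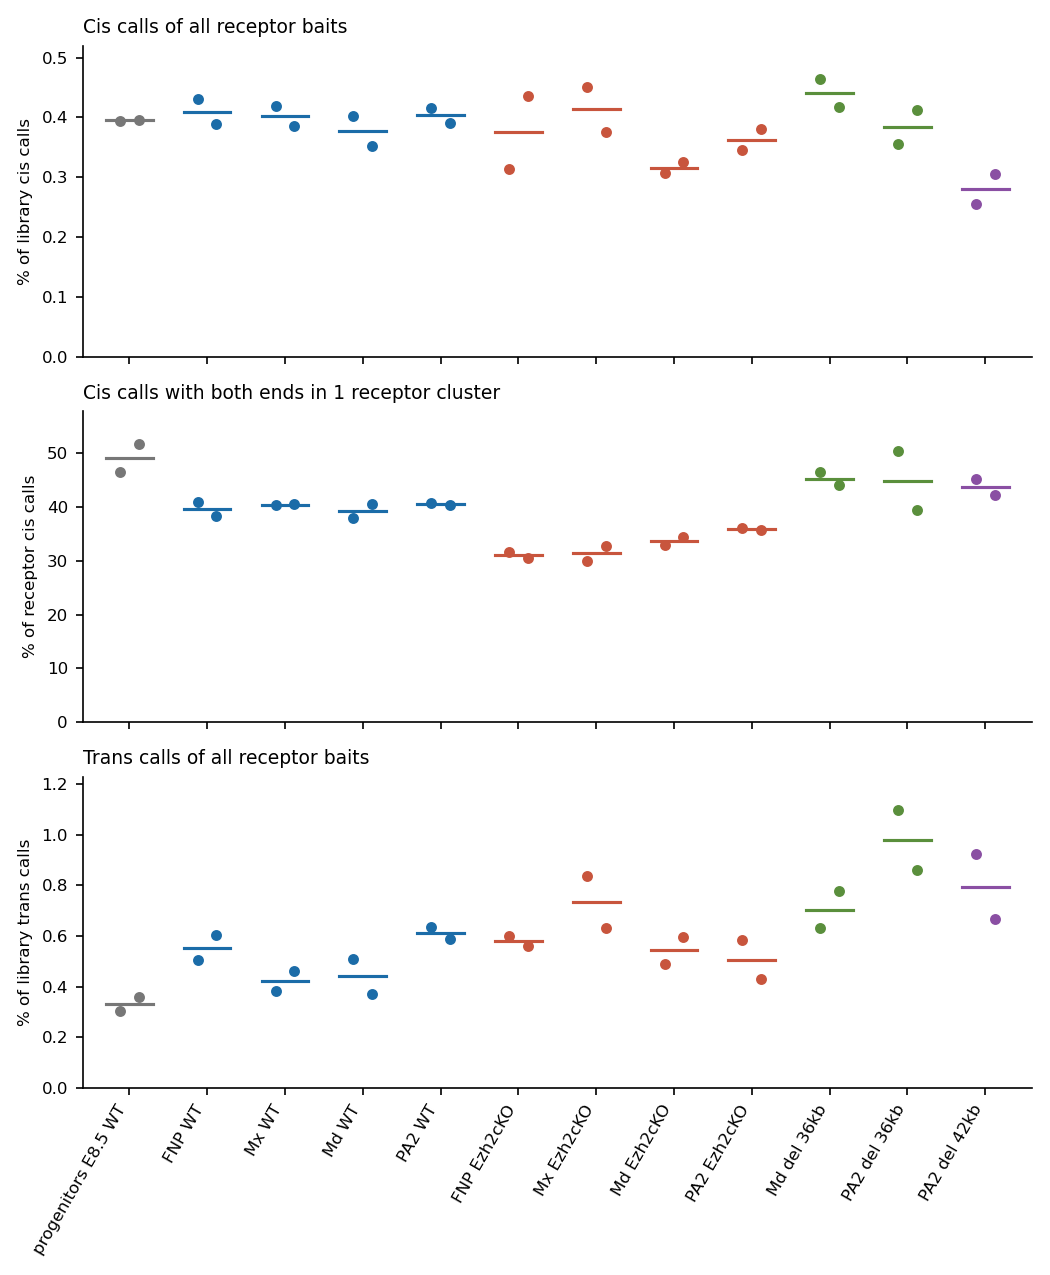
Share of library cis calls listed at the 119 receptor baits (top, % of library cis calls), share of those cis calls with both ends in 1 cluster (middle, % of receptor cis calls) and share of library trans calls (bottom, % of library trans calls). Each point is 1 library, bars are group means of 2, and colours mark E8.5 WT (grey), E11.5 WT (blue), Ezh2cKO (red), 36kb deletion (green) and 42kb deletion (purple). The 42kb libraries are lowest in the top panel (0.255% and 0.305%), and the Ezh2cKO libraries lie below the WT libraries in the middle panel (30.0% to 36.01% against 38.0% to 40.9%).

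Trans calls of the receptor baits were few. They made up 0.303% and 0.359% of library trans calls at E8.5, 0.372% to 0.635% in E11.5 WT (median 0.508%) and 0.429% to 0.838% in Ezh2cKO (median 0.589%), which overlapped. In the deletion libraries they made up 0.631% and 0.777% in Md with 36kb, 1.10% and 0.860% in PA2 with 36kb, and 0.922% and 0.666% in PA2 with 42kb. The lowest deletion library (0.631%) lay just inside the WT range, whose highest library reached 0.635%, and the other 5 lay above it. As a share of the receptors' own calls, trans calls were 3.10% to 4.86% in WT, 4.33% to 7.42% in Ezh2cKO and 4.67% to 13.8% in the deletion libraries. For all baits this share was 2.94% to 3.39% in E11.5 WT and 3.41% to 4.35% in Ezh2cKO. With 36kb it was 3.09% to 3.72%, and with 42kb 4.22% and 3.79%. Olfr baits gave 3.41% to 4.18% of library trans calls in WT and 3.87% to 5.50% in Ezh2cKO. They gave 4.90% to 6.31% with the 36kb deletion and 4.62% and 4.93% with the 42kb deletion.

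The distance that receptor contacts spanned differed between groups. The median cis distance was 759 and 775 kb at E8.5 and 1221 to 1425 kb in E11.5 WT libraries, so the stages did not overlap. In Ezh2cKO it ran from 1157 to 2586 kb and overlapped WT, with 36kb from 807 to 1055 kb and with 42kb it was 824 and 890 kb, both below the WT range. Over all baits the medians were 434 and 447 kb at E8.5, 443 to 492 kb in E11.5 WT and 393 to 475 kb in Ezh2cKO. With 36kb they were 415 to 435 kb and with 42kb 389 and 398 kb, again below the WT range. Calls over more than 5 Mb made up 26.1% to 30.2% of receptor cis calls in E11.5 WT and 26.5% to 40.9% in Ezh2cKO, against 9.60% to 11.2% of the cis calls of all baits in the E11.5 WT libraries. In the E8.5 libraries this share was 18.3% and 16.7% for the receptors and 17.2% and 17.8% for all baits, higher for the receptors in 1 library and lower in the other.

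Single baits were compared with limma on log2 cis calls per library total, fitted over 9178 baits, with Benjamini-Hochberg adjustment and a threshold of 0.05. The first comparison asked whether contacts of receptor promoters differ between E8.5 progenitors (n = 2) and E11.5 WT crest (n = 8, the mean of 4 tissues). Of 43 tested receptor baits, 5 were higher and 2 lower at E11.5, or 16.3%, while 29.7% of all tested baits changed (20.2% higher and 9.47% lower). The higher ones lay next to each other on chromosome 7 (Vmn1r75 and Vmn1r76) or within the chromosome 17 cluster (Vmn1r224, Vmn2r105 and the bait shared by Vmn2r109 and Vmn2r110), and the lower ones, Vmn1r196 and Vmn1r198, on chromosome 13.

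Vmn1r76, a V1R receptor whose bait is chr7:11930212-11939821, had 4 and 5 cis calls at E8.5 and 13 to 24 (median 19) at E11.5. The groups did not overlap (log2 change 1.80, SE 0.29, adjusted p = 9.8e-05). Vmn1r224, a V1R receptor on chromosome 17 (bait chr17:20415656-20420047), had 1 call in each E8.5 library and 4 to 10 (median 7.5) at E11.5, also without overlap (2.14, SE 0.46, adjusted p = 0.00149). Both stayed called with any 1 of the 10 libraries left out, but the size of their change fell to 1.13 for Vmn1r76 and 0.75 for Vmn1r224 where bait pairs were counted at both ends.

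Vmn1r75 had 1 and 4 calls at E8.5 and 8 to 19 (median 12.5) at E11.5 (2.15, SE 0.46, adjusted p = 0.00149). The V2R bait Vmn2r105 had 2 and 5 calls against 5 to 18 (median 9), where 1 library of each stage tied at 5 (1.28, SE 0.37, adjusted p = 0.0135). The bait of Vmn2r109 and Vmn2r110, 2 V2R genes, had 0 and 2 calls against 2 to 9 (median 3.5; 1.95, SE 0.62, adjusted p = 0.0228), and its size rests on the added 0.5. Each of these 3 lost its call without E8.5 replicate 1 (log2 change 1.39, 0.75 and 0.82, adjusted p = 0.111, 0.317 and 0.504 in this order). Vmn1r75 was 1.01 with bait pairs counted at both ends. Vmn2r109 and Vmn2r110 also have a bait each of their own, both below the minimum for testing. That of Vmn2r109 had 4 and 2 calls at E8.5 and 1 to 6 at E11.5, and that of Vmn2r110 3 and 1 against 1 to 4.

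On chromosome 13, Vmn1r196 had 19 and 12 calls at E8.5 and 5 to 9 (median 6.5) at E11.5, and fell by 1.26 on the log2 scale (SE 0.35, adjusted p = 0.00958). Vmn1r198, its neighbour in the V1R cluster, had 10 calls in both E8.5 libraries and 1 to 6 (median 3.5) at E11.5, and fell by 1.57 (SE 0.51, adjusted p = 0.0245). Neither overlapped between the stages. Without E8.5 replicate 1 the adjusted p was 0.205 for Vmn1r196 and 0.154 for Vmn1r198, and without replicate 2 it was 0.13 for Vmn1r198. The median log2 change of the 43 baits was −0.08, with 21 above 0, against 0.07 over all 9178, and turned to 0.03 without scaling to library totals.

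**Figure D2:**
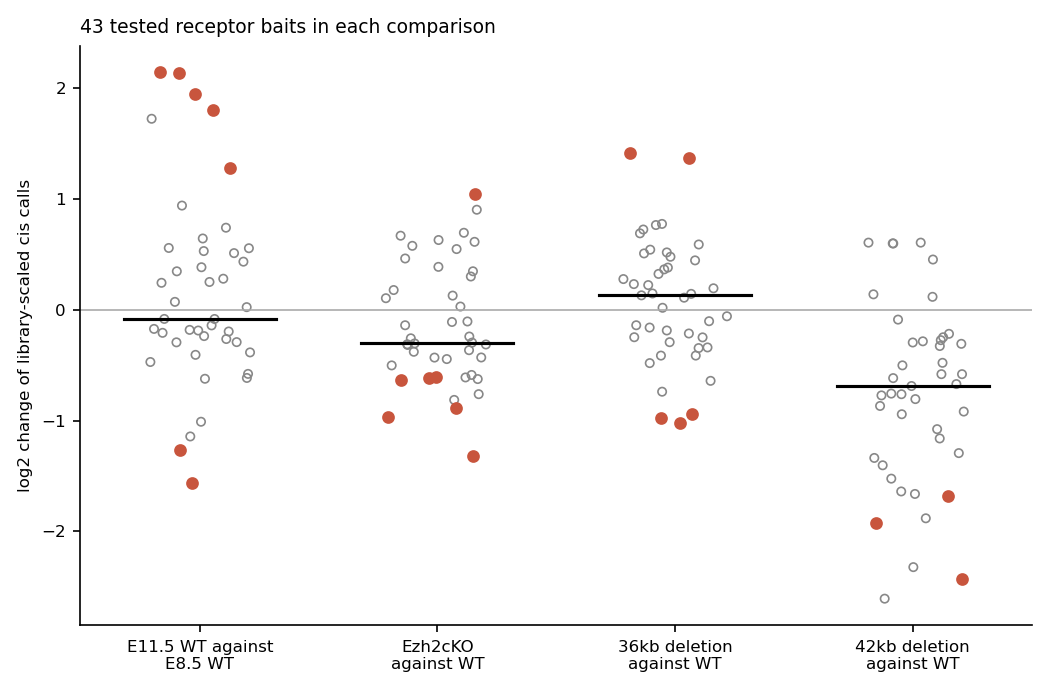
Log2 change of library-scaled cis calls (vertical axis) for each of the 43 tested receptor baits in 4 comparisons (horizontal axis). Filled red points passed an adjusted p of 0.05 in limma, open grey points did not, and black bars are medians over the 43. The median sits at −0.69 for the 42kb deletion and between −0.30 and 0.13 in the other 3 comparisons.

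The Ezh2cKO comparison asked whether receptor contacts differ after loss of Ezh2, with 8 knockout and 8 WT libraries from 4 tissues. Of 43 tested receptor baits, 1 was higher and 6 were lower, or 16.3%, against 9.93% of all tested baits (5.08% higher and 4.85% lower). Of the 6 that fell, 5 lay in the large chromosome 7 cluster, Vmn1r70, Vmn1r71, Vmn1r74, Vmn1r76 and Vmn1r80, all V1R receptors. The sixth was the chromosome 6 bait of Vmn1r4 that also holds an end of Nt5c3, called Vmn1r4 below, and the 1 that rose was Vmn1r224. Another Vmn1r4 bait, chr6:56951983-56961156, holds no end of Nt5c3 and fell below the minimum for testing. It did not show this fall, with 0 to 3 calls in WT and 0 to 5 in Ezh2cKO. The median over the 43 was −0.30 (16 above 0), against 0.02 over all tested baits, and over all 119 receptor baits without a minimum it was −0.14 (47 above 0), against 0.04.

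Vmn1r76 had 13 to 24 cis calls (median 19) in WT and 4 to 16 (median 10) in Ezh2cKO. Its highest Ezh2cKO libraries, at 16, were in FNP and Mx and overlapped the lower WT libraries, while Md and PA2 had 4 to 8 (log2 change −0.97, SE 0.18, adjusted p = 0.00181). Vmn1r71 (bait chr7:10747366-10750762) had 27 to 48 calls (median 40) in WT and 16 to 43 (median 25.5) in Ezh2cKO, with overlap (−0.60, SE 0.14, adjusted p = 0.00917). Both stayed called with any 1 of the 16 libraries left out.

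The remaining changes rested on more of the libraries. Vmn1r74 had 11 to 15 calls (median 13) in WT and 4 to 12 (median 8.5) in Ezh2cKO (−0.62, SE 0.17, adjusted p = 0.0227). Without FNP WT replicate 2, PA2 WT replicate 1, FNP Ezh2cKO replicate 1 or Md Ezh2cKO replicate 1 its adjusted p was 0.0505 to 0.0594. Vmn1r70 had 13 to 28 (median 22) against 8 to 21 (median 13.5), and Vmn1r80 4 to 9 (median 7.5) against 2 to 10 (median 4). Vmn1r4 had 4 to 14 (median 6.5) against 0 to 7 (median 3.5). These 3 had log2 changes of −0.63 (SE 0.19), −0.88 (SE 0.27) and −1.32 (SE 0.37), with adjusted p = 0.0433, 0.0433 and 0.0289. At all 4 baits the groups overlapped. Vmn1r70 did not pass without scaling (adjusted p = 0.0608), nor Vmn1r80 with bait pairs counted at both ends (0.078).

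Vmn1r224 rose from 4 to 10 calls (median 7.5) in WT to 7 to 25 (median 14.5) in Ezh2cKO, and 1 PA2 Ezh2cKO library, at 7, lay inside the WT range (1.04, SE 0.29, adjusted p = 0.0271; 0.47 with bait pairs counted at both ends). It lost its call on leaving out 8 of the 16 libraries in turn, at adjusted p of 0.0504 to 0.0701: FNP WT replicate 1, Mx WT replicate 2, Md WT replicate 2, PA2 WT replicate 1, FNP Ezh2cKO replicate 2, Mx and Md Ezh2cKO replicate 1 and PA2 Ezh2cKO replicate 2. Vmn1r4 was lost without 9 of the 16 (adjusted p = 0.052 to 0.0796) and Vmn1r70 without 11 (0.0568 to 0.116). Vmn1r80 was lost without 13 (0.0538 to 0.114) and kept only without Md Ezh2cKO replicate 1, PA2 Ezh2cKO replicate 2 or FNP WT replicate 2. Libraries whose loss ended the call for both Vmn1r4 and Vmn1r70 were FNP WT replicate 1, FNP, Mx and PA2 Ezh2cKO replicate 1, and Mx and Md Ezh2cKO replicate 2. For Vmn1r4 they also included Mx, Md and PA2 WT replicate 2, and for Vmn1r70 FNP WT replicate 2, Mx, Md and PA2 WT replicate 1 and Md Ezh2cKO replicate 1.

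**Figure D3:**
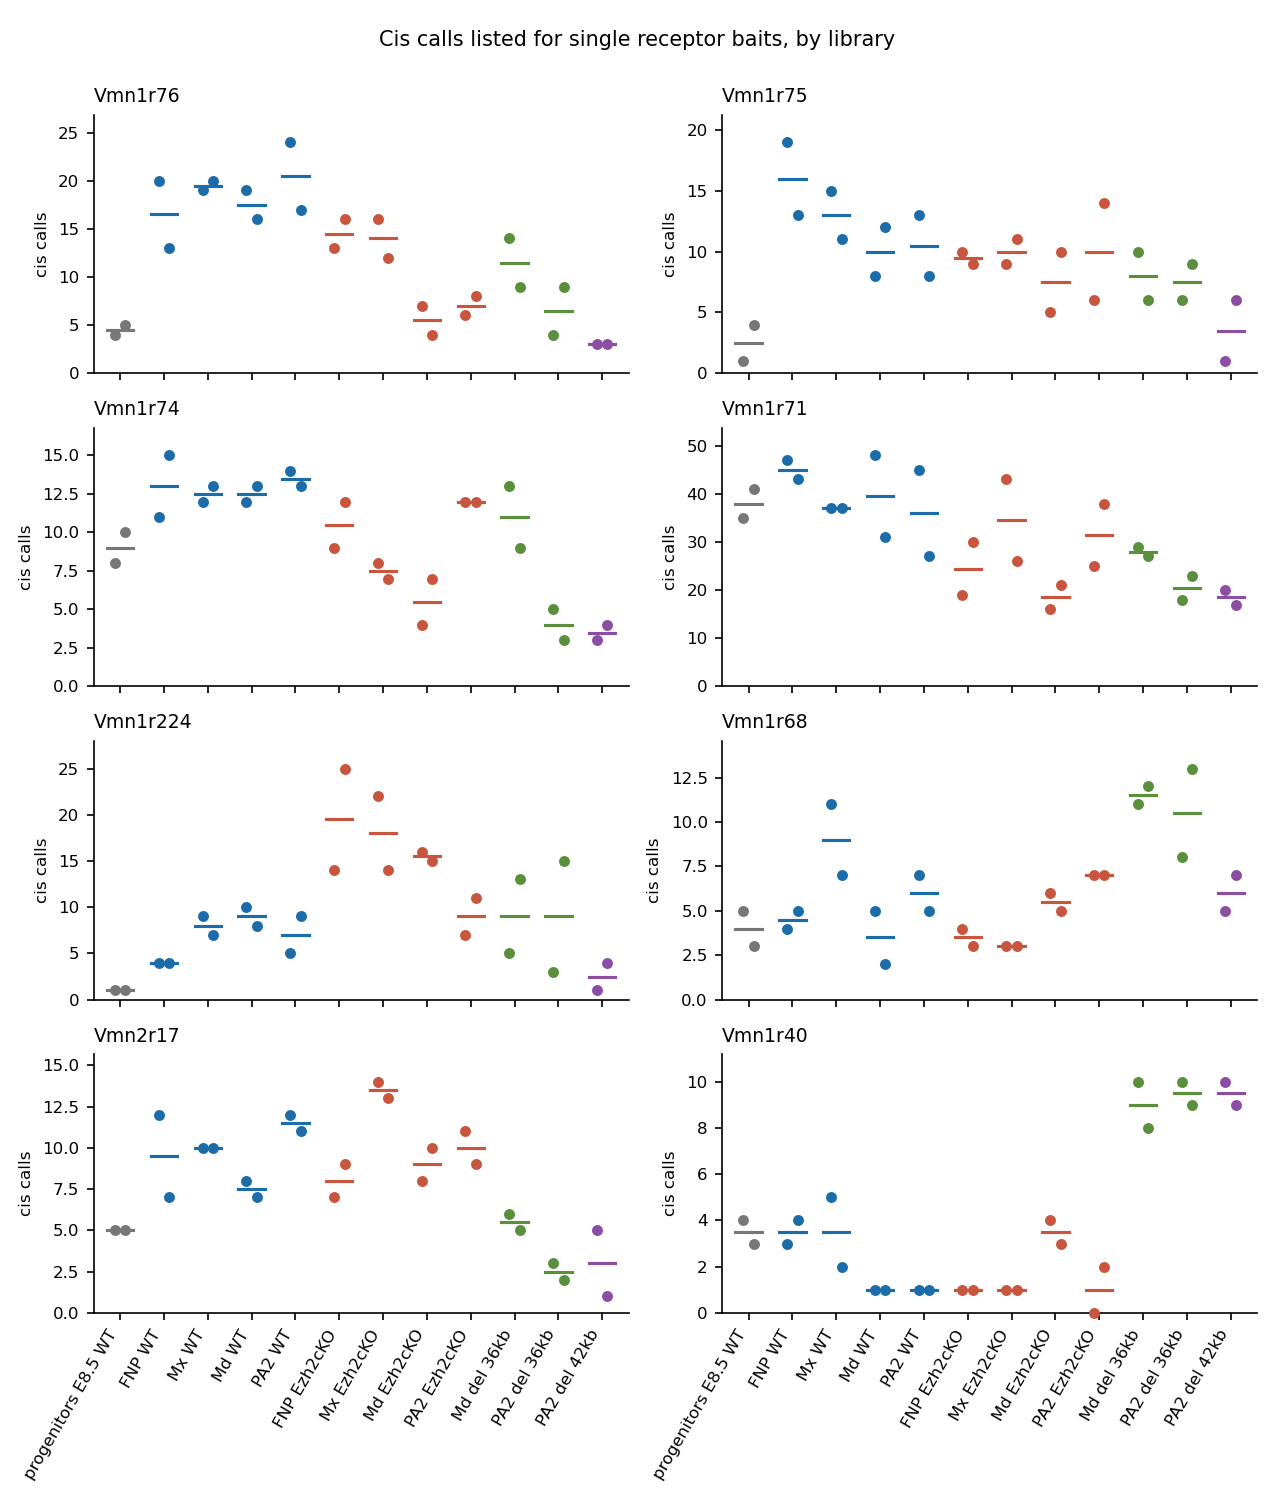
Cis calls listed per library (vertical axes) for 8 receptor baits in the 12 groups (horizontal axis), with each point 1 library and bars the group means of 2. Colours are grey for E8.5 WT, blue for E11.5 WT, red for Ezh2cKO, green for the 36kb and purple for the 42kb deletion. Vmn1r76 has 13 to 24 calls in E11.5 WT and 3 in both 42kb libraries, and Vmn1r40 has 8 to 10 in the 6 deletion libraries and at most 5 elsewhere.

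The 36kb deletion was compared with WT over Md and PA2 (4 against 4 libraries), and the 42kb deletion with WT in PA2 (2 against 2). Both use WT libraries that also serve in the stage and Ezh2cKO comparisons, and the 2 PA2 WT libraries serve in all 4. A WT value shared by these comparisons therefore moves them together. A high E11.5 WT value raises the stage change and lowers the other 3, so they are not independent. With the 36kb deletion, 2 of 43 tested receptor baits were higher and 3 lower, or 11.6%, against 9.73% of all tested baits (4.63% higher and 5.1% lower). Vmn1r68 and Vmn1r218 rose, and Vmn1r76, Vmn2r17 and Vmn1r180 fell. The median of the 43 was 0.13 (24 above 0), and −0.07 without scaling to library totals, against 0.02 and −0.18 over all tested baits.

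Vmn1r68, a V1R receptor at chr7:10524002-10529539, had 11, 12, 8 and 13 calls with the 36kb deletion and 5, 2, 7 and 5 in WT of Md and PA2. The groups did not overlap (1.41, SE 0.32, adjusted p = 0.00931), and the call held with any 1 of the 8 libraries left out. In Mx of WT the same bait had 11 and 7 calls, and the library with 11 lay within the range of the deletion libraries. Vmn1r218, at the end of the chromosome 13 cluster, had 10, 12, 8 and 10 calls against 6, 8, 5 and 1 (1.37, SE 0.42, adjusted p = 0.0457), with 1 WT library level with the lowest deletion library. Other WT tissues had 11 and 12 calls at this bait.

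Vmn1r76 had 14, 9, 4 and 9 calls with the 36kb deletion and 19, 16, 24 and 17 in WT of Md and PA2, without overlap (−0.94, SE 0.26, adjusted p = 0.0286; −0.54 and adjusted p = 0.0944 with bait pairs counted at both ends). Vmn2r17, a V2R receptor on chromosome 5 (bait chr5:109417393-109422521), had 6, 5, 3 and 2 calls against 8, 7, 12 and 11 (−1.02, SE 0.32, adjusted p = 0.0489), also without overlap. Vmn1r180, in the small V1R cluster near 23.9 Mb of chromosome 7, had 4, 7, 10 and 10 against 18, 20, 15 and 16 (−0.98, SE 0.31, adjusted p = 0.0498).

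These 4 calls were not stable to the loss of 1 library. Vmn2r17 lost its call whichever of the 8 was left out (adjusted p = 0.0596 to 0.13), Vmn1r218 with each but PA2 WT replicate 1 left out (0.0802 to 0.224, with a log2 change of 0.90 without PA2 WT replicate 2) and Vmn1r180 with each but Md deletion replicate 2 left out (0.0914 to 0.178). Vmn1r76 lost it without Md WT replicates 1 and 2, PA2 WT replicate 1, Md deletion replicate 2 or PA2 deletion replicate 1 (0.0516 to 0.136). Vmn1r218 did not pass without scaling or with median scaling (adjusted p = 0.0786 and 0.0516), nor Vmn2r17 with bait pairs counted at both ends (0.0608).

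With the 42kb deletion, 3 of 43 tested receptor baits fell and none rose by limma's adjusted p, or 6.98%, against 2.31% of all tested baits (1.36% lower). An unadjusted limma p under 0.05 was found at 17 of the 43 and at 1597 of all 9178 tested baits. The median over the 43 was −0.69 with 7 above 0, against 0.01 over all tested baits, and it stayed between −0.83 and −0.69 under the 3 scalings. Over all 119 receptor baits without a minimum it was −0.47 with 39 above 0, against 0.14. For 299 tested baits of other chemoreceptors, almost all Olfr, the median was −0.32.

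Vmn1r76 had 3 calls in each 42kb library and 24 and 17 in PA2 of WT, the largest gap among the tested receptor baits that passed (−2.43, SE 0.37, adjusted p = 0.0019), and it stayed called with any 1 of the 4 libraries left out. Vmn1r74, its neighbour at chr7:11844225-11847793, had 3 and 4 calls against 14 and 13 (−1.68, SE 0.33, adjusted p = 0.0103). Vmn2r17 had 5 and 1 against 12 and 11 (−1.92, SE 0.45, adjusted p = 0.0308). None of the 3 overlapped WT of PA2. Vmn1r74 was not called without PA2 WT replicate 1, PA2 WT replicate 2 or deletion replicate 1 (adjusted p = 0.096, 0.0622 and 0.0902), nor Vmn2r17 without PA2 WT replicate 1, replicate 2 or deletion replicate 2 (0.157, 0.129 and 0.294, the last with a log2 change of −0.96).

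Set against each other in PA2, the deletions differed at no tested receptor bait by limma's adjusted p, while 0.534% of all tested baits passed. An unadjusted limma p under 0.05 was found at 13 receptor baits of 43 and at 1168 of all 9178 tested baits. Vmn1r76 had 4 and 9 calls with 36kb and 3 and 3 with 42kb (−0.97, SE 0.37, adjusted p = 0.244), and Vmn1r74 had 5 and 3 against 3 and 4. The closest to the threshold was Vmn1r80, with 9 and 6 calls with 36kb and 1 and 2 with 42kb (−2.09, SE 0.54, adjusted p = 0.0865). The median over the 43 was −0.51, against 0.00 over all tested baits.

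Receptor baits did not pass a test between tissues. Over the 4 WT tissues 0 of 43 passed limma's adjusted p, while 0.229% of all tested baits passed. An unadjusted p under 0.05 was found at 3 (Vmn1r218, Vmn1r66 and Vmn1r68) and at 911 of all 9178 tested baits. A test of whether the Ezh2cKO effect differed between tissues passed for 0 of 43 and for 0.0109% of all. There, 3 had an unadjusted p under 0.05, among them Vmn1r76 (unadjusted p = 0.0219, adjusted p = 0.729), as did 544 of all 9178. A test of whether the 36kb effect differed between Md and PA2 also passed for 0 of 43 and for 0.0109% of all. Here 4 had an unadjusted p under 0.05, led by Vmn1r74 (13 and 9 calls in Md, 5 and 3 in PA2, adjusted p = 0.742), as did 479 of all 9178.

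Summing the calls of all baits in fixed windows of 1 Mb reached clusters whose single baits list few calls. Of 1606 windows with a mean of at least 20 cis calls, 28 held a receptor bait. In E11.5 WT, 10 of them were higher and 4 lower than in E8.5 libraries, while 31.5% of all windows were higher and 24% lower. In Ezh2cKO 3 were higher and 9 lower, against 18.9% and 11.9% of all windows. With the 36kb deletion 3 were higher and 11 lower (19.1% and 8.72% of all), and with the 42kb deletion 1 higher and 9 lower (6.04% and 5.42%). Between the deletions in PA2, 1 was higher with 42kb and 3 were lower (2.68% and 3.18%). The split by direction depended on where windows began: shifted by 0.5 Mb, 32 windows held a receptor bait, and 10 were higher and 7 lower for stage, 4 and 5 for Ezh2cKO, 5 and 10 for 36kb, 0 and 13 for 42kb and 0 and 3 between the deletions. Between WT tissues 0 of 28 passed limma's adjusted p, while 3.86% of all windows passed. An unadjusted p under 0.05 was found at 1 of the 28 and at 262 of all 1606 windows.

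Most of these windows carry other genes, so their calls are not mainly receptor calls. In 6 windows most baits were receptor baits, but in 3 of these the other baits made most of the calls: receptors gave 17.4% of the calls in the chromosome 6 window at 57 Mb, 25.4% in that at 10 Mb of chromosome 7 and 25.8% in that at 22 Mb of chromosome 13. In the other 3 the receptors led, with 100% in the chromosome 7 window at 11 Mb, 92.0% in the chromosome 17 window at 20 Mb and 69.0% in the chromosome 7 window at 23 Mb.

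The chromosome 7 window at 11 Mb holds 6 baits, all of V1R genes, from Vmn1r72 to the shared bait of the pseudogenes Vmn1r-ps57 and Vmn1r-ps58 and including Vmn1r74, Vmn1r75 and Vmn1r76. It had 29 and 32 cis calls at E8.5 and 58 to 76 (median 62) in the 8 E11.5 WT libraries, and the stages did not overlap (0.95, SE 0.23, adjusted p = 0.000812). In Ezh2cKO it had 19 to 56 calls (median 39), all below WT (−0.76, SE 0.14, adjusted p = 0.000197). With the 36kb deletion it had 26 to 50 calls against 58 to 73 in WT of Md and PA2 (−0.55, SE 0.20, adjusted p = 0.0457), and with the 42kb deletion 11 and 27 against 60 and 73 in PA2 of WT (−1.77, SE 0.29, adjusted p = 0.000189).

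These comparisons share E11.5 WT libraries, and in each the window's calls did not overlap between the groups. The stage, Ezh2cKO and 42kb changes held with any 1 library left out. The 36kb change did not hold without Md WT replicate 1 or 2, PA2 WT replicate 1 or 2, Md deletion replicate 2 or PA2 deletion replicate 1 (adjusted p = 0.0578 to 0.209). The difference between the deletions in PA2 (−0.97, SE 0.29, adjusted p = 0.0419) was lost without either 36kb library or 42kb replicate 1 (0.0583, 0.195 and 0.618).

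The chromosome 17 window at 20 Mb, with 18 receptor baits among 20, moved in another way. Its receptor baits, which include Vmn2r105 and Vmn1r224, had 56 and 61 calls at E8.5 and 87 to 107 (median 96) at E11.5 in WT, and all calls of the window rose (0.63, SE 0.12, adjusted p = 5.0e-05). In Ezh2cKO the receptor baits had 98 to 159 calls (median 116.5), and the window rose again (0.31, SE 0.08, adjusted p = 0.00221). With the 36kb deletion it did not pass (−0.05, adjusted p = 0.754), and with the 42kb deletion its receptor baits had 44 and 59 calls against 100 and 92 in PA2 of WT (−0.69, SE 0.15, adjusted p = 0.00392). The stage and Ezh2cKO changes held with any 1 library left out, and the 42kb change was lost without 42kb replicate 1 (adjusted p = 0.14). So was the difference from the 36kb deletion in PA2 (−0.73, SE 0.15, adjusted p = 0.00401, and 0.145 without that library).

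The chromosome 7 window at 23 Mb, around Vmn1r178, Vmn1r180 and Vmn1r181, did not change with stage (0.00, SE 0.21, adjusted p = 0.998) and fell in the 3 E11.5 comparisons. It had 57.0 ± 9.89 calls in WT (SD, n = 8) and 41.8 ± 12.1 in Ezh2cKO (n = 8; −0.52, SE 0.13, adjusted p = 0.00344), a change that held with any 1 library left out. It had 35.2 ± 4.57 with the 36kb deletion (n = 4), against 59.8 ± 9.78 in WT of Md and PA2 (n = 4; −0.55, SE 0.19, adjusted p = 0.028) and 23.0 ± 1.41 with the 42kb deletion (n = 2), against 59.0 ± 14.1 in PA2 of WT (n = 2; −1.18, SE 0.26, adjusted p = 0.0045). The 36kb change was lost without Md or PA2 WT replicate 1, Md deletion replicate 1 or 2 or PA2 deletion replicate 1 (0.0562 to 0.159), and the 42kb change without PA2 WT replicate 1 (0.11). The window at 22 Mb of chromosome 13, where receptors gave 25.8% of the calls, passed no test, a result that rests mostly on other baits. Its receptor baits alone, whose sum was not tested, had 51 to 81 calls in E11.5 WT and 83 to 107 in Ezh2cKO.

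**Figure D4:**
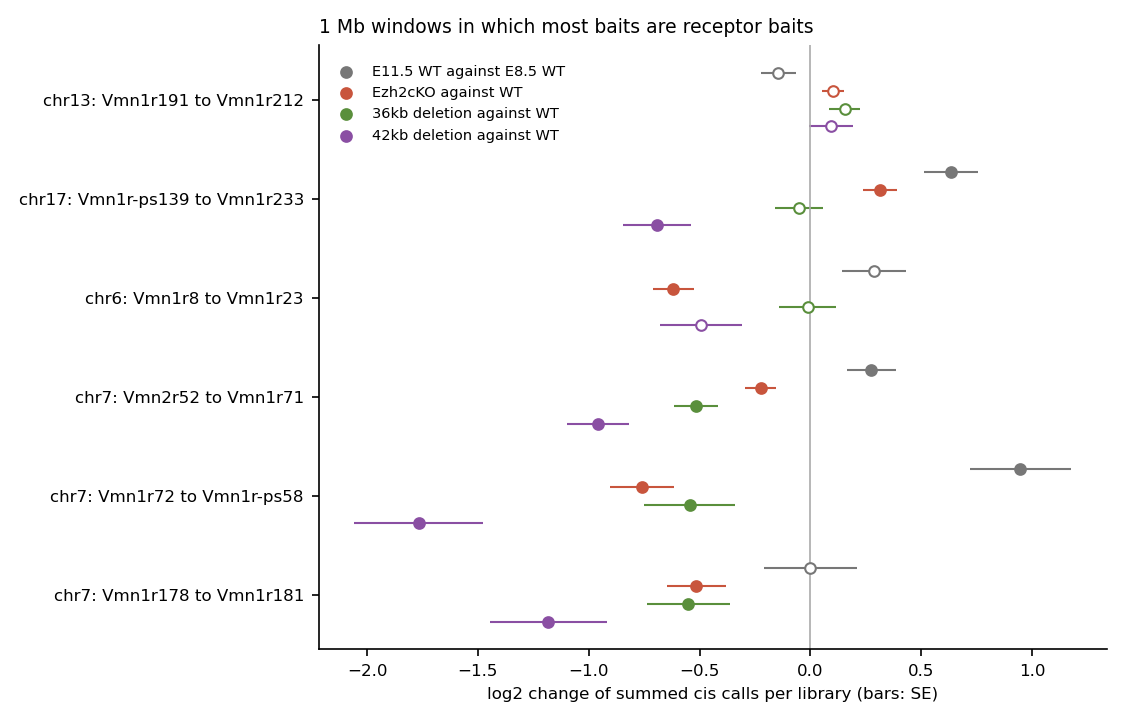
Log2 change of summed cis calls per library total (horizontal axis, bars are standard errors) for the 6 windows of 1 Mb in which most baits are receptor baits (vertical axis, named by their first and last receptor bait). Filled points passed an adjusted p of 0.05 in limma and open points did not; colours mark the comparison. The chromosome 7 window from Vmn1r72 to Vmn1r-ps58 runs from 0.95 for stage to −1.77 for the 42kb deletion.

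Sums over whole clusters, given without a test, counted the receptor baits alone. The chromosome 7 cluster of 24 baits had 136 ± 14.3 cis calls per 100000 library cis calls at E8.5 (SD, n = 2), 149 ± 13.5 in E11.5 WT (n = 8), 109 ± 25.6 in Ezh2cKO (n = 8), 130 ± 27.2 with the 36kb deletion (n = 4) and 87.8 ± 15.0 with the 42kb deletion (n = 2), against 154 ± 17.6 in PA2 of WT (n = 2). Both 42kb libraries, at 77.2 and 98.5, lay below the 8 WT libraries (130 to 171). The share of this cluster's calls that stayed inside it was 49.4% to 55.6% in WT and 41.8% to 53.2% in Ezh2cKO, and 55.7% to 69.3% with the 36kb deletion. The chromosome 13 cluster of 19 V1R baits had 44.6 to 58.6 calls per 100000 in WT and 59.0 to 68.2 in Ezh2cKO, just apart, while the share inside the cluster was 53.8% to 66.0% in WT and 41.9% to 50.9% in Ezh2cKO.

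Most single contacts of the receptor baits were seen once. The 119 baits took part in 10218 distinct interactions, 9413 in cis and 805 in trans, of which 79.2% and 97.8% were listed in 1 library only, against 61.1% and 88.2% over all baits. The other end held no annotated gene end in 76.7% of 14766 cis calls, while 12.7% met another receptor fragment, 2.89% an Olfr and 0.989% a Zfp fragment. Of 849 trans calls, 813 reached a fragment with no gene end, 9 an Olfr and 4 another receptor fragment. Calls that joined receptor clusters on different chromosomes numbered 0 to 4 per library.

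A core of 12 receptor interactions was listed in all 24 libraries, or 0.117% of the receptor interactions against 1.18% of all interactions. By median score the first was that of Vmn1r68 with chr7:10494570-10496023, a fragment at the zinc finger gene Zik1 31.5 kb away (median score 21.9). Vmn1r180 met chr7:23966136-23966523, 10.2 kb away (17.5), and Vmn1r68 met the fragment of Vmn1r67 80.4 kb away (16.8). The score is the authors', relative to each library's own background, and ranks interactions here only. The others lay at Vmn1r178, again Vmn1r180, Vmn1r67, Vmn1r181, Vmn1r81, Vmn1r-ps144, the Vmn1r212 bait and between Vmn1r229 and Vmn1r224, the last over 398 kb.

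A group of V1R promoters on chromosome 13 met 1 fragment mainly in Ezh2cKO and 36kb libraries. It was listed at chr13:23402903-23409191, a fragment of 6289 bp that overlaps no annotated gene and lies 33.7 kb from Zfp322a and 9.17 kb from Abt1, beyond the end of the V1R cluster. The number of receptor baits that listed it was 3 and 4 at E8.5, 0 to 3 in the 8 E11.5 WT libraries and 9 to 14 in the 8 Ezh2cKO libraries. It was 9, 9, 6 and 12 with the 36kb deletion and 0 in both 42kb libraries. Ezh2cKO and 36kb libraries lay above the other 12, and the 42kb libraries matched the lowest WT libraries. Counting every bait, 79 listed it in some library, 18 of them receptor baits. All baits together gave 15 and 17 calls at E8.5, 6 to 12 in WT, 36 to 48 in Ezh2cKO, 30 to 39 with 36kb and 6 and 4 with 42kb, so the pattern was shared by other genes of that region.

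Of 40 receptor interactions listed in at least 7 of 8 Ezh2cKO libraries, 7 were in at most 1 of 8 E11.5 WT libraries (17.5%), against 2.02% of all such interactions, and 6 of these 7 met this fragment. They were led by Vmn1r196, listed in 8 Ezh2cKO and 1 WT libraries over 1114 kb (median score 14.2), the bait of Vmn1r202 and Vmn1r-ps108 with 7 and 0 over 906 kb (13.6), and Vmn1r193 with 8 and 1 over 1187 kb (13.5). The seventh joined the Vmn1r202 bait to the fragment next to it. Vmn1r193 and Vmn1r195 also listed the fragment in both E8.5 libraries.

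In the reverse direction, 2 of 44 receptor interactions listed in at least 7 of 8 WT libraries were in at most 1 of 8 Ezh2cKO libraries, against 2.89% of all such interactions. Both belonged to Vmn2r53, a V2R receptor at chr7:12599968-12611407, and ran to another chromosome, into the gene Tnrc6b, whose product acts in microRNA silencing. The fragment chr15:80882339-80883456 was listed in all 8 E11.5 WT libraries with a median score of 74.9 and chr15:80881513-80882338 in 7 of 8 (35.99). Neither was listed in the 2 E8.5, 8 Ezh2cKO or 6 deletion libraries.

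This trans contact was not restricted to Vmn2r53. From 21 baits of chromosome 7, 63 calls reached 3 adjoining Tnrc6b fragments, 34 of them from 8 receptor baits: Vmn1r75, Vmn1r76, Vmn1r81, Vmn1r83, Vmn1r85, Vmn1r86, Vmn2r53 and Vmn2r56. Vmn2r53 gave 19, and zinc finger genes between the receptors, such as Zfp551 and Zfp110, gave others. In order of FNP, Mx, Md and PA2, with replicate 1 before 2, the WT libraries had 5, 6, 6, 9, 14, 9, 8 and 6 such calls, and the other 16 libraries had 0. E8.5 WT was among the libraries at 0, so the contact went with neither the WT label nor the E11.5 stage alone. Whether E11.5 WT embryos came from another line or strain than the rest is not among the facts the labels give, and the part of line or strain in this contact was not tested. Batch was not tested either, because each library has its own batch label.

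**Figure D5:**
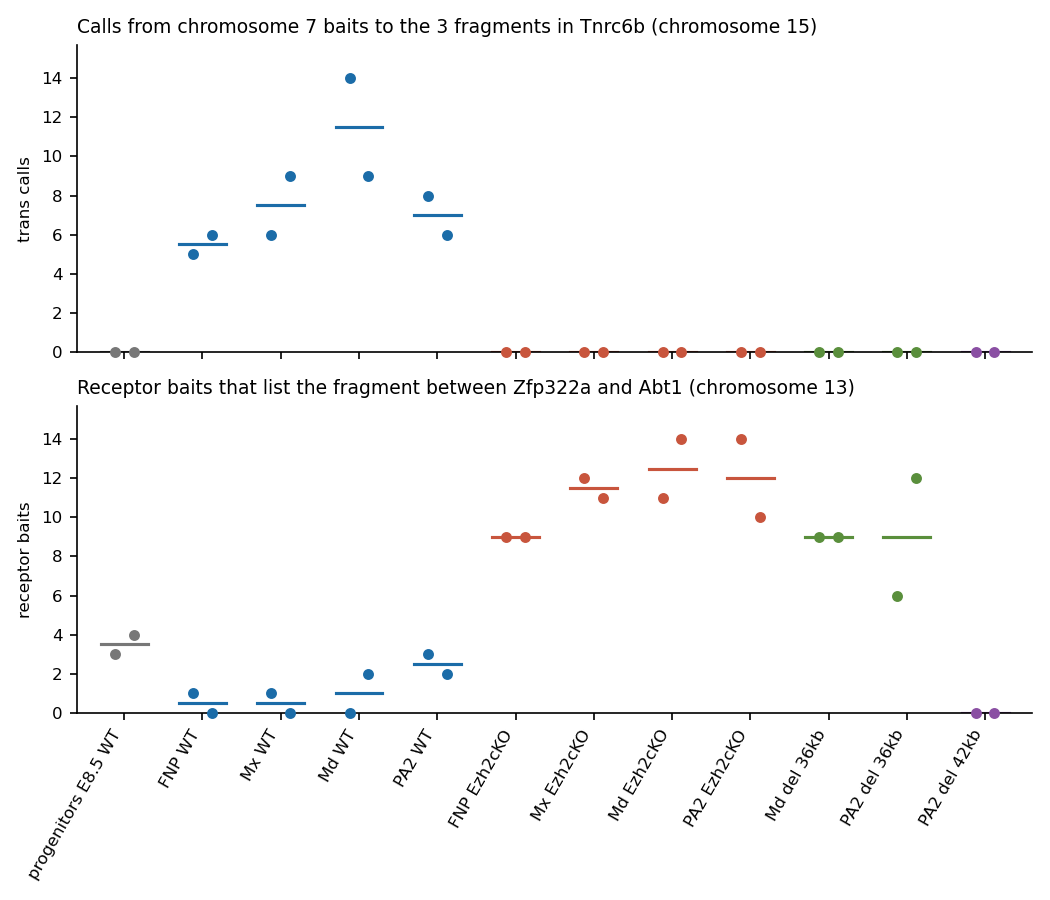
Calls per library from chromosome 7 baits to 3 fragments in Tnrc6b on chromosome 15 (top, trans calls) and number of receptor baits that list the chromosome 13 fragment between Zfp322a and Abt1 (bottom, receptor baits), in the 12 groups. Each point is 1 library and bars are group means of 2, coloured as grey for E8.5 WT, blue for E11.5 WT, red for Ezh2cKO, green for the 36kb and purple for the 42kb deletion. The top panel has 5 to 14 calls in the 8 E11.5 WT libraries and 0 in the other 16; the bottom panel has 6 to 14 in Ezh2cKO and 36kb libraries and at most 4 elsewhere.

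Trans calls of single receptor baits were too sparse for the planned minimum of a mean of 2, which 129 baits and no receptor bait reached. Vmn2r53 had the most, 30 over the 24 libraries, followed by Vmn2r15 with 22, Vmn2r17 with 21, Vmn1r75 with 18 and Vmn1r71 and Vmn2r79 with 17 each. Vmn2r53 had 1 and 0 at E8.5, 2 to 4 in the 8 WT libraries, 0 to 2 in Ezh2cKO, 0 or 1 with 36kb and 0 with 42kb. Of its 30 trans calls, 19 were the Tnrc6b contacts above.

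Vmn1r40, a V1R receptor at chr6:89709439-89718603, stood out in the deletion lines. It had 10, 8, 10 and 9 cis calls with the 36kb deletion, 10 and 9 with the 42kb deletion and 1 in each of the 4 WT libraries of Md and PA2. FNP and Mx of WT had 3, 4, 5 and 2, E8.5 had 4 and 3, and Ezh2cKO 0 to 4, so no other library reached the lowest deletion library. With a mean of 3.92 it fell below the minimum for testing. Tested without a minimum, it rose with the 36kb deletion (2.89, adjusted p = 0.00113) and the 42kb deletion (2.87, adjusted p = 0.046), in fits where 22187 baits were tested. A V2R bait on chromosome 17, Vmn2r100, also below the minimum with a mean of 2.96, had a similar pattern. It had 11, 4, 9 and 9 cis calls with the 36kb deletion and 6 in each 42kb library. Every other library had 0 to 3. In the same fits Vmn2r100 rose with the 36kb deletion (2.96, limma adjusted p = 0.011) and did not pass with the 42kb deletion.

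Contacts of Vmn1r40 in the deletion lines ran across its cluster and beyond. Of 24 receptor interactions listed in all 6 deletion libraries, 7 were listed in at most 1 of 8 E11.5 WT libraries, against 10.2% of all such interactions, and 5 of the 7 were those of Vmn1r40. They met chr6:90327960-90334668 at the urocanase gene Uroc1, 617 kb away (median score 17.7), chr6:90324365-90325509 at Chst13 (15.2), chr6:90427514-90430269 at Cfap100 (14.7), the fragment of the receptor Vmn1r51 and one at Klf15, and each was listed in 6 of 6 deletion libraries and in 0 of the other 18. The other 2 joined Vmn2r100 to Vmn2r101 on chromosome 17, also in the 6 deletion libraries only, and the pseudogene Vmn2r-ps11 to a fragment on chromosome 3 that E8.5 and Ezh2cKO libraries listed too. Chromosome 6 also carries Hoxa2, the gene that names the deletions. Whether a shared chromosome has a part in the Vmn1r40 contacts was not tested.

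Of 44 receptor interactions listed in at least 7 of 8 E11.5 WT libraries, 6 were in none of the 6 deletion libraries, against 4.91% of all. Besides the Tnrc6b pairs they included Vmn1r84 with the Zik1 fragment 1866 kb away (7 WT, 3 Ezh2cKO and 0 deletion libraries, score 14.2), Vmn1r180 with a fragment 25.1 kb away, Vmn1r55 with one at Sbk2 and Sbk3, and Vmn1r230 with the receptor Vmn1r226. Between the stages, 83 of 171 receptor interactions listed in both E8.5 libraries were in at most 1 of 8 E11.5 WT libraries (48.5%), against 23.7% of all such interactions. They were led by the trans pair of Vmn1r195 with chr3:129632669-129634737 in Elovl6, a fatty acid elongase gene (15.9). Next came Vmn1r193 with the chromosome 13 fragment (13.5) and Vmn1r71 with chr7:5896847-5899435 over 4851 kb (13.5). At E11.5 the Elovl6 pair was also listed in 5 Ezh2cKO and 3 36kb libraries, and the Vmn1r193 pair in 8 and 4. Only the Vmn1r71 pair of these was confined to the 2 E8.5 libraries. The reverse, in at least 7 of 8 WT and neither E8.5 library, held for 6 of 44, against 20.5% of all. A pair missing from E8.5 or from E11.5 WT libraries may still be present there below the score threshold. Median scores of the 83 pairs ran from 15.9 down to 5.22, near the minimum of 5.

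Other genes of the vomeronasal pathway were taken from lists. Of 17 baits for signal transduction (such as G protein subunits, ion channels and nonclassical MHC genes of the H2-M10 family), 10 were tested, and 2 changed with stage, 1 in Ezh2cKO and 1 with the 36kb deletion, where 29.7%, 9.93% and 9.73% of all tested baits did. At E11.5 the G protein subunit gene Gng8 was higher than at E8.5 (1.15, SE 0.35, adjusted p = 0.0177) and H2-M10.6 lower (−0.97, SE 0.35, adjusted p = 0.0399). In Ezh2cKO the adenylate cyclase gene Adcy3, of the main olfactory pathway, was higher (0.84, SE 0.23, adjusted p = 0.0232), with the 36kb deletion H2-M10.1 (1.20, SE 0.28, adjusted p = 0.0114), and 0 of 10 passed with 42kb. Of 15 baits for pheromone ligands and binding proteins 1 was tested, Esp36, an exocrine-gland peptide gene, which was higher at E11.5 (1.87, SE 0.35, adjusted p = 0.000395) and lower with the 42kb deletion (−2.79, SE 0.44, adjusted p = 0.00222).

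Regulators of olfactory and vomeronasal neurons had 12 of 17 baits tested. At E11.5, 4 were higher than at E8.5 and 0 lower, among them the homeobox genes Emx2 (1.11) and Meis2 (1.22), while 20.2% of all tested baits were higher and 9.47% lower. In Ezh2cKO the homeobox genes Emx2 (−0.57, adjusted p = 0.0117) and Lhx2 (−0.92, adjusted p = 0.00609) were lower, and with the 36kb deletion Bcl11b, a zinc finger factor of V1R neurons, was higher (0.84, adjusted p = 0.0299) and Emx2 lower (−0.71, adjusted p = 0.0289). Over all tested baits 9.93% changed in Ezh2cKO and 9.73% with the 36kb deletion. None passed with the 42kb deletion. Of 926 baits of other chemoreceptors, almost all Olfr, 299 were tested: 37 were higher and 11 lower at E11.5 (20.2% and 9.47% of all tested baits), 4 and 12 in Ezh2cKO (5.08% and 4.85%), 30 and 5 with the 36kb deletion (4.63% and 5.1%) and 8 and 16 with the 42kb deletion (0.948% and 1.36%).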

How the data were processed

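Promoter capture Hi-C with HindIII digestion of paraformaldehyde-fixed cells was deposited as 1 list of interactions per library, each with a bait, another fragment and the authors' score, a number that per the file contents is 5 or more. The builds GRCm38 and mm10 come from the submitters' processing notes; the read aligner and the caller's version were not given in the sources used here. Sequencing depth is unknown, because the lists hold no read counts.

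Calls were counted per bait (the fragment listed first), in fixed windows of 1 Mb and in receptor clusters. For each library, log2 of cis calls plus 0.5 over the library's cis total was fitted with limma 3.58.1 in R 4.3.3 with 12 group means and a mean-variance trend, for baits with a mean of at least 5 cis calls and windows with at least 20. P-values were adjusted by Benjamini and Hochberg's method over all tested features. Python 3.11.15 with pandas 2.3.3 counted calls. The fit was tested on simulated data.

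The members and gene lists were chosen with earlier results of these data known. Named were the 10 baits with the highest mean cis calls, the 5 with the most trans calls, each bait past the threshold, the 3 interactions of each class with the highest median score and the clusters of at least 3 baits. Vmn1r40, Vmn2r100 and the baits nearest the threshold were chosen after their values were seen. So were the Tnrc6b and chromosome 13 fragments as regions and further interactions of a class. Alternatives were other minimums, pseudocounts, scalings, cluster gaps, scores, counting at either end, a replicate block and leaving out each library. For 1 PA2 library of the 36kb deletion the genotype label holds another sample's title, and its own title gave the group. Some values for the gene lists are not reported here.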

Additional observations from a re-analysis of the deposited data

How the results depend on the processing

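Scaling did not turn any of the 22 bait calls, but without scaling to library totals the median of all tested baits moved to 0.19 for stage, −0.18 for the 36kb and −0.13 for the 42kb deletion. With any 1 library left out, 6 of the 22 bait calls and 26 of 54 window calls held throughout. Called receptor baits then numbered 2 to 8 for stage, 3 to 7 for Ezh2cKO, 1 to 2 for the 36kb deletion, 1 to 4 for the 42kb deletion, and 0 to 1 both between tissues and between the deletions. Called windows numbered 10 to 14 for stage, 7 to 13 for Ezh2cKO, 10 to 14 for 36kb, 5 to 7 for 42kb and 0 to 5 between the deletions.

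A minimum mean of 10 cis calls left 9 receptor baits and 1, 3, 2 and 1 calls for stage, Ezh2cKO, 36kb and 42kb. A score of at least 7 left 6 baits and 1, 1, 0 and 0 calls, and left 18 windows with 7, 4, 9 and 6 calls and 2 between the deletions. A pseudocount of 0.1 gave 4 calls for Ezh2cKO and 3 for 36kb, counting at either end 3 for 36kb, and no minimum 5 for 42kb. Trans calls at a minimum mean of 1 gave 1 receptor bait each for Ezh2cKO, 36kb and 42kb. This was Vmn2r53, which reached that minimum through its WT calls, so nothing is read from it. With a score of at least 7 or the replicate block, no receptor bait was tested in trans. Trans fits with a library left out were not run.

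Over the 24 libraries the median receptor share of cis calls moved from 0.390% to 0.331% with a score of at least 7 and to 0.429% with either end counted. The median share within clusters moved from 40.4% to 35.3% at that score, and to 28.7% and 47.9% with cluster gaps of 0.5 and 2 Mb. At that score the median trans share fell to 0.163% from 0.591%, and its difference between deletion and WT libraries to 0.126 from 0.318 percentage points. The lower within-cluster share in Ezh2cKO (−6.92 percentage points) ranged from −8.23 to −4.67. The cause of these shifts was not tested.

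Replicate numbers do not pair the libraries: deviations of same-numbered libraries correlated at −0.0985 to 0.149. With the replicate number as a block, 7, 6, 3 and 3 receptor baits were called for stage, Ezh2cKO, 36kb and 42kb, and 14, 12, 14 and 11 windows, with 4 between the deletions.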
